A study of Mus musculus with 6 samples.

Results

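The genes described here encode the RAB, ARF and ARL small GTPases that direct vesicle traffic, in CD4 T cells of the inflamed mouse colon. They were chosen by symbol: Rab, Arf or Arl directly followed by a digit, without pseudogenes and without symbols ending in Rik or os, which left out 8 symbols. The rule took 104 of the 55335 genes in the count table. Of these, 6 were ARF genes, 20 were ARL genes, 59 were RAB genes and 19 were partner genes named after a GTPase, among them 2 antisense RNAs (Rab11fip4os1 and Rab11fip4os2).

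RNA was sequenced in bulk from 3 GFP-positive and 3 GFP-negative libraries. Both gates were sorted from the colon lamina propria of Rag1 knockout mice with colitis, hosts that make no T or B cells of their own and had received naive CD4 T cells from the spleens of Tcf7-GFP reporter donors. The GFP-positive gate holds cells in which the Tcf7 reporter was active, and the labels call them stem-like. The GFP-negative gate holds cells without reporter signal, which the labels call effector cells. All 6 libraries therefore share the Rag1 knockout host, the transfer and the inflamed tissue, and no library of unperturbed T cells is in the comparison. The labels give neither the age of the mice nor whether animals were pooled. Whether each replicate is a mouse of its own is not said either, and the p-values hold for the spread among these libraries, some of it possibly technical.

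RAB, ARF and ARL proteins are molecular switches that bind membranes when loaded with GTP and release them after GTP is hydrolysed. Exchange factors load them, GTPase-activating proteins switch them off, and effectors such as coats, tethers and motor adaptors act while they are on. RAB proteins mark single compartments, ARF proteins recruit coats and change membrane lipids, and ARL proteins have diverse tasks at the Golgi, lysosomes and cilia. In T cells such switches serve the recycling of the antigen receptor to the synapse, the release of granules and cytokines, and migration.

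Total counts were between 4309500 and 7462076 per library, and 3 reads of a gene correspond to 0.43 to 0.69 CPM (counts scaled to the size of the library), a floor that covers counting error only. The genes of this group held 0.710, 0.612 and 0.613% of the counts in GFP-positive replicates 1 to 3, and 0.708, 0.739 and 0.705% in GFP-negative replicates 1 to 3. All 7 T cell markers had counts in every library, and Cd4 stood at 510 to 643 CPM in GFP-positive libraries and at 593 to 695 CPM in GFP-negative libraries. Tcf7, the gene behind the reporter, had 237, 183 and 141 CPM in GFP-positive libraries and 121, 141 and 71.3 CPM in GFP-negative libraries, so that the lowest GFP-positive and the highest GFP-negative library were almost level (adjusted p = 0.367, edgeR quasi-likelihood test). GFP-positive replicate 3 stood apart. Myeloid markers took 0.684% of its counts, against 0.0145 to 0.0198% in the other 5 libraries, and epithelial markers took 0.0490%, against 0.00368 to 0.0104%. Markers of antigen-presenting and B cells took 0.657% there, against 0.0182 to 0.0433%, natural killer and innate lymphoid markers 0.0759%, against 0.00297 to 0.0126%, and stromal and endothelial markers 0.0328%, against at most 0.00106%. T cell markers took 0.454% of its counts, against 0.583 to 0.638% in the other 5. Results that rest on that library are therefore given with and without it.

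Of the 104 genes, 84 had a promoter window in RefSeq (GRCm38.p6), taken as the 250 bases upstream of a transcript start. Of the 77 genes tested below, 66 had a window. Arf6 had none, so its promoter was not searched. The first windows shown are those of the tested genes with the smallest p after Arf6. The others held a match to the core motif of TCF and LEF factors, the family of the protein made from Tcf7. In the first pair, capitals mark the GC box GGGCGG, read on both strands. The Arf3 window is one of 2 for that gene and lies at chr15:98762993-98763242, minus strand, and the Rab35 window lies at chr5:115631737-115631986, plus strand. GENCODE M21 places Arf3 at chr15:98736634-98763214 and Rab35 at chr5:115631908-115647736. Most of the Arf3 window and part of the Rab35 window therefore lie inside the genes as annotated there.
Arf3: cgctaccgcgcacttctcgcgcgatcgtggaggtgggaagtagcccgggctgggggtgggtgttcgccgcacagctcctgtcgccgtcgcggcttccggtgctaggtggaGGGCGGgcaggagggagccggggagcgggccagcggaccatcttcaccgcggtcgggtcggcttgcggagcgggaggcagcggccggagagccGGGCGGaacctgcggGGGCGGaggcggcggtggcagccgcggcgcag
Rab35: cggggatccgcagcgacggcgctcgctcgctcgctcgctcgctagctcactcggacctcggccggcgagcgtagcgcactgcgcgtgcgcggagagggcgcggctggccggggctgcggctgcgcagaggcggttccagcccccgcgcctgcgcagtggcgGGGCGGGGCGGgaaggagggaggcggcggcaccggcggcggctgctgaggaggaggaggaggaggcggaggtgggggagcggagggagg
In the second pair, capitals mark the TCF/LEF core CTTTGNT, read on both strands. The Arf5 window lies at chr6:28423354-28423603, plus strand, and GENCODE M21 starts Arf5 at 28423560, inside that window. The Rab11fip3 window lies at chr17:26021861-26022110, minus strand, at a start inside the gene, which GENCODE M21 places at chr17:25989036-26069555.
Arf5: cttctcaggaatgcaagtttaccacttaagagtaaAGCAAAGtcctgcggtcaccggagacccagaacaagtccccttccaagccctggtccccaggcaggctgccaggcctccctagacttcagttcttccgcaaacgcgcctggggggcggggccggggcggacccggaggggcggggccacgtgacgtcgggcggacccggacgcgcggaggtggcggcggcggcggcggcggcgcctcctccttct
Rab11fip3: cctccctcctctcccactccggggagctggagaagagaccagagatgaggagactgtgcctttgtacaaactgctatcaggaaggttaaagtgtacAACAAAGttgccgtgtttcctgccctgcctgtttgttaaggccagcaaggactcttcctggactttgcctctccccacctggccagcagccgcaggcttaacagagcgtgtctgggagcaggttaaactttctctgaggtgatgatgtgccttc

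The GC box was found 3 times in the Arf3 window shown and 2 times in the Rab35 window, whose GC contents were 76.0% and 78.8%. The other Arf3 window held 1 GC box, at a GC content of 69.2%. Over the 82 windows of tested RAB, ARF and ARL genes, 61 (74.4%) held a GC box, beside 57.7% of the 10605 windows of all tested genes and 32.7% of all 32851 windows. The CCAAT box, CCAAT on either strand, was found in 37 of the 82 windows (45.1%), beside 35.7% of the windows of tested genes. The TCF/LEF core was found in 2 of the 82 windows (2.44%), those of Arf5 and Rab11fip3, beside 12.04% of the windows of tested genes and 15.98% of all windows. None of the 3 motifs contains another, and a match describes the window and is not a site of binding.

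Most of these genes were transcribed in both gates. A count was found in every library for 75 of the 104, and 6 (Arl13a, Arl14epl, Arl9, Rab11fip4os2, Rab3c and Rab9b) had no count in any library, which allows up to 0.43 to 0.69 CPM. Levels were compared between genes in TPM, the deposited levels scaled by transcript length and library. By mean TPM over the 6 libraries, 80 genes reached 1 TPM, 62 reached 10 TPM and 18 reached 100 TPM. Arf1, which recruits coats to the Golgi, was highest with a mean level of 788 TPM, rank 199 among all genes. Arl6ip1, which shapes the endoplasmic reticulum, followed with 647 TPM, and then Rab1b, which serves traffic from the endoplasmic reticulum to the Golgi, with 380 TPM. Arf6, which acts at the plasma membrane in endocytosis, recycling and actin remodelling, averaged 348 TPM, level with Arl6ip5, a membrane protein of the endoplasmic reticulum, at 347 TPM. Arf5, a Golgi ARF, averaged 308 TPM. The 10 highest genes held 57.6% of the summed TPM of the group, and by class RAB genes held 41.9%, ARF genes 27.4%, partner genes 21.7% and ARL genes 8.99%.

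**Figure D1:**
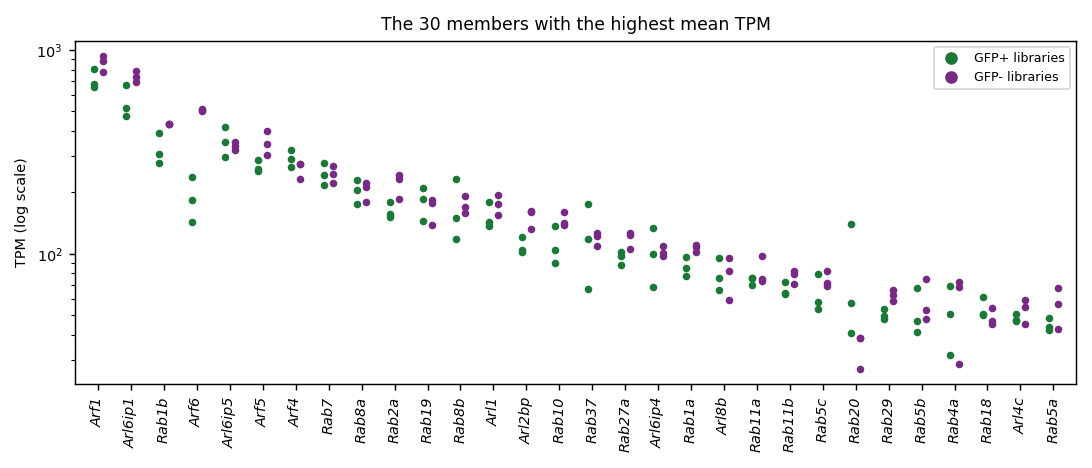
TPM per library on a log axis for the 30 genes of the group with the highest mean TPM, ordered from high to low. Each point is a library, GFP-positive to the left in green and GFP-negative to the right in purple, and the points of the gates are farthest apart for Arf6.

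The plot of TPM levels shows how closely most genes matched between gates, with Arf6 as the widest gap among the 30 highest. Summed per class, ARF transcripts came to 1510 ± 86.5 TPM in GFP-positive libraries and 2047 ± 92.5 TPM in GFP-negative libraries (SD, n = 3 each). RAB transcripts came to 2585 ± 274 TPM in GFP-positive libraries and 2851 ± 96.9 TPM in GFP-negative libraries, and ARL transcripts came to 571 ± 47.5 TPM in GFP-positive libraries and 594 ± 42.3 TPM in GFP-negative libraries. Partner transcripts came to 1292 ± 189 TPM in GFP-positive libraries and 1521 ± 24.4 TPM in GFP-negative libraries. The ARF and partner sums did not overlap between gates, while the RAB and ARL sums did. The partner sums nearly met, at 1484 TPM in GFP-positive replicate 1 and 1496 TPM in GFP-negative replicate 1. In bulk RNA, fewer cells that use a gene and less RNA of it per cell cannot be told apart.

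The comparison of gates asked which of these genes differed between colon T cells sorted by whether the Tcf7 locus was active. Of the 104 genes, 77 passed the filter on low counts and were tested (6 ARF, 16 ARL, 41 RAB and 14 partner genes), and 27 were not. By edgeR's quasi-likelihood test with Benjamini-Hochberg adjustment over all 11074 tested genes, 1 of the 77 was lower in GFP-positive cells, Arf6, and 0 were higher. Over all tested genes 0.108% were called, 0.0722% lower and 0.0361% higher. DESeq2 called 2 of the 77 as lower, Arf6 and Arf3, and limma-voom called Arf6, and neither called one as higher. Over all tested genes DESeq2 called 1.17% lower and 0.632% higher, and limma-voom 0.0903% lower and 0.0722% higher. Without GFP-positive replicate 3, edgeR again called 1 of 77, Arf6, and 0 as higher, where 0.37% of 11361 genes were called, 0.255% lower and 0.114% higher.

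At an unadjusted p under 0.05, 13 of the 77 (16.9%) were lower and 2 (2.60%) were higher in GFP-positive cells, beside 5.97% lower and 4.31% higher over all tested genes. The CPM values of the gates did not overlap for 19 genes (24.7%) that were lower and for 3 (3.90%) that were higher in GFP-positive cells, where all tested genes gave 8.8% lower and 7.25% higher. The median log2 fold change of the 77 genes was -0.06, beside 0.02 over all tested genes, and 44 of the 77 (57.1%) were negative, beside 48.4%. Without GFP-positive replicate 3, 11 genes were lower and 0 higher at an unadjusted p under 0.05 (beside 7.56% and 4.65% of all tested genes). In the same libraries the gates did not overlap for 25 lower (32.5%, beside 15.8% of all tested genes) and 6 higher (7.79%, beside 13.6%), 44 of the 77 log2 fold changes were negative (beside 48.8%), and their median was -0.11. The differences were mostly small: 57 of the 77 log2 fold changes lay within 0.5 of 0, and 10 were beyond 1.

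**Figure D2:**
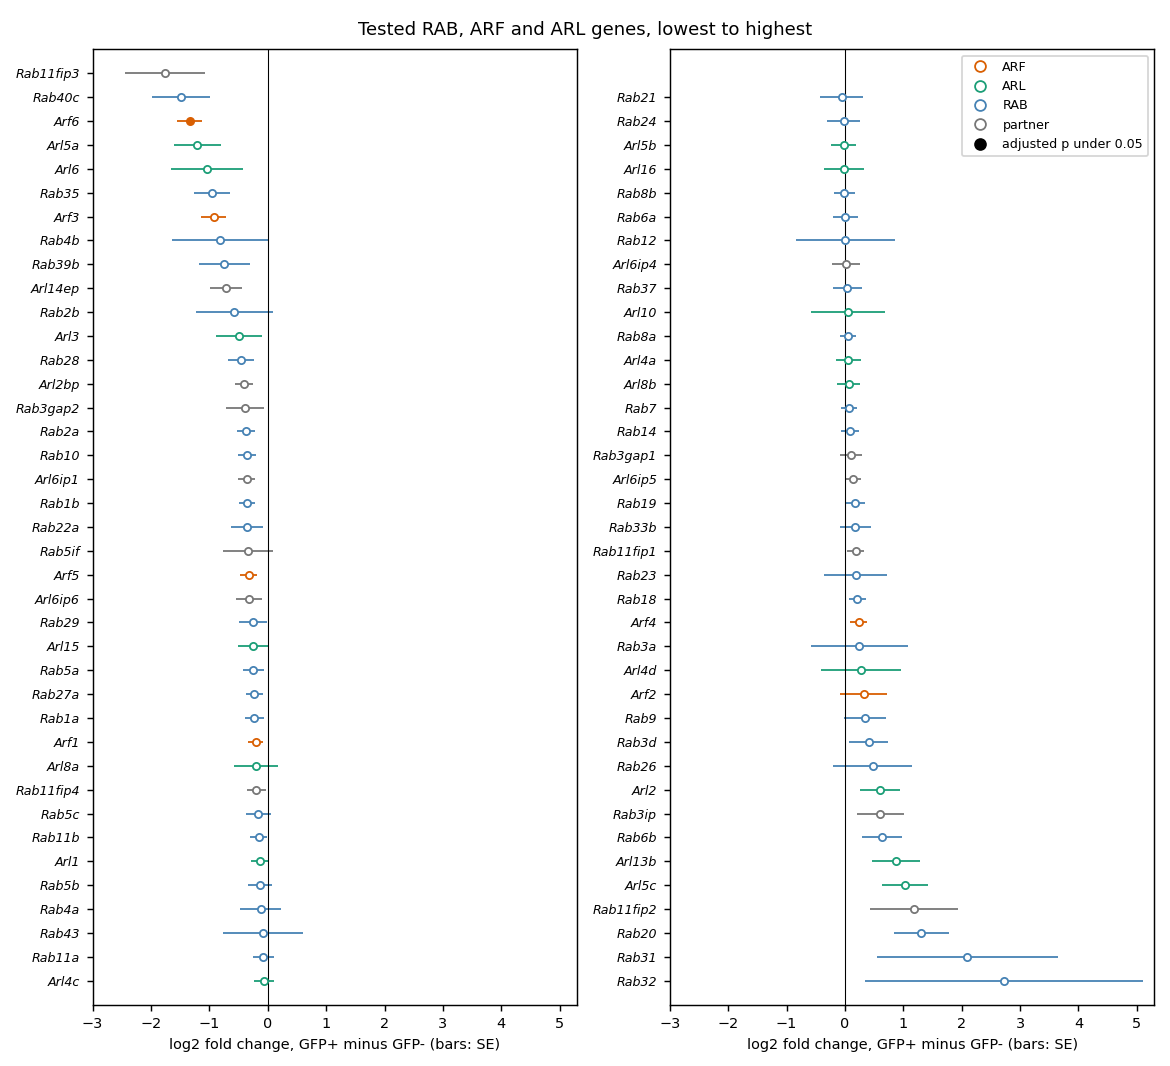
Log2 fold change, GFP-positive minus GFP-negative, for the 77 tested genes from lowest to highest, with bars of 1 standard error and colours for the ARF, ARL, RAB and partner classes. The filled point, Arf6 at -1.34, is the gene with an adjusted p under 0.05, and the widest bars belong to Rab32 and Rab31.

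Among the ARF genes, Arf6 (ENSMUSG00000044147.8) lies at chr12:69372150-69373783 on the plus strand of GRCm38, per GENCODE M21. It had 422, 437 and 993 reads in GFP-positive replicates 1 to 3, against 1383, 1156 and 1229 in GFP-negative replicates 1 to 3. Scaled to library size these are 73.1, 100.5 and 142.4 CPM in GFP-positive libraries and 268.1, 262.9 and 269.5 CPM in GFP-negative libraries. All 3 GFP-positive libraries were below all 3 GFP-negative libraries, which lay close together, while the GFP-positive libraries were spread over a wider range. The mean was 105.3 ± 34.9 CPM in GFP-positive cells and 266.8 ± 3.49 CPM in GFP-negative cells (SD, n = 3 each). Arf6 fell by 1.34 on the log2 scale (SE 0.21, adjusted p = 0.0294, edgeR quasi-likelihood test), a ratio of means of 0.395.

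The direction of the Arf6 difference was the same in all 23 other fits, with log2 fold changes on the CPM or TPM scale, and adjusted p ran between 2.32e-15 and 0.289 over them. These fits reuse the same libraries, whose gates did not overlap for Arf6, so the shared direction is not separate evidence. The call was kept without GFP-positive replicate 3 (log2 fold change -1.62, adjusted p = 0.00341, edgeR). It was lost without any other single library, where edgeR's adjusted p was 0.0783 and 0.289 without GFP-positive replicates 1 and 2, and 0.0842, 0.242 and 0.167 without GFP-negative replicates 1 to 3. Of the 1534 exon bases of Arf6, 13.6% are shared with Gm9887 on the opposite strand, and the libraries do not record strand. Gm9887 itself had 25, 18 and 41 counts in GFP-positive libraries and 43, 17 and 18 counts in GFP-negative libraries.

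Arf3, a Golgi and recycling-endosome ARF close to Arf1 in sequence, had 33.6, 43.9 and 46.3 CPM in GFP-positive libraries, against 77.7, 91.0 and 66.7 CPM in GFP-negative libraries. The gates did not overlap, and the means were 41.3 ± 6.76 CPM for GFP-positive cells and 78.4 ± 12.2 CPM for GFP-negative cells. Its log2 fold change of -0.93 (SE 0.21) missed the threshold by edgeR (adjusted p = 0.127) and passed it by DESeq2 (adjusted p = 0.0140). Arf1 had 560, 506 and 537 CPM in GFP-positive libraries and 565, 648 and 640 CPM in GFP-negative libraries, which differ by -0.21 on the log2 scale (edgeR adjusted p = 0.662). Arf5 had 183, 176 and 189 CPM in GFP-positive libraries and 201, 219 and 268 CPM in GFP-negative libraries, which differ by -0.33 on the log2 scale (edgeR adjusted p = 0.473). For both genes every GFP-positive library was below every GFP-negative one, by small margins. Arf5 shares 16.4% of its exon bases with Gcc1 on the opposite strand.

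Arf4, the other Golgi ARF of the class of Arf5, had 389, 340 and 408 CPM in GFP-positive libraries and 344, 330 and 293 CPM in GFP-negative libraries, with overlap and a log2 difference of 0.23 (edgeR adjusted p = 0.630). Arf2, with Arf3 the lowest of the class in TPM, had 25.5, 19.8 and 30.6 CPM in GFP-positive libraries and 33.7, 10.2 and 16.4 CPM in GFP-negative libraries, and the gates overlapped. Arf2 and Arf4 complete the class and were not taken by the rule for named genes.

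**Figure D3:**
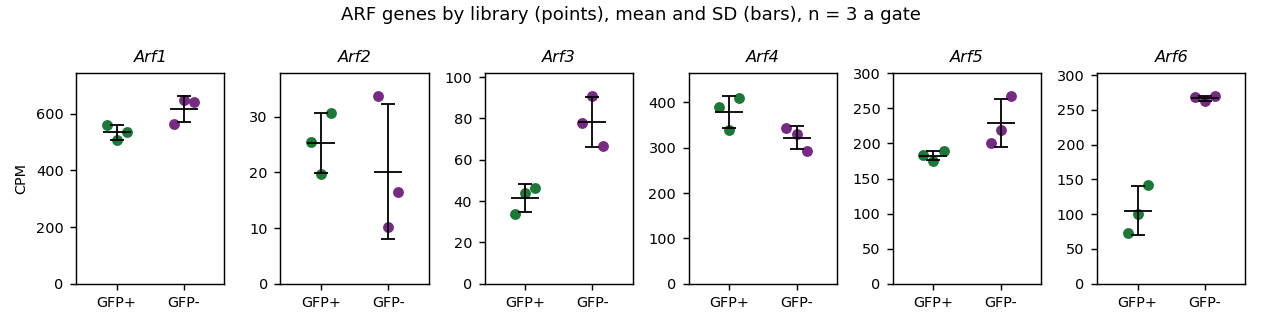
CPM of the 6 ARF genes in each library (points), with the mean and SD of the 3 libraries per gate (lines and bars), GFP-positive left and GFP-negative right, each axis starting at 0. Arf6 and Arf3 show a gap between the gates, while Arf2 and Arf4 overlap.

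Seen as a share of all ARF transcripts, Arf6 made up 8.90, 12.9 and 15.95% of summed ARF TPM in GFP-positive libraries, and 25.9, 24.1 and 24.3% in GFP-negative libraries. The share was lower in all 3 GFP-positive libraries, at a mean of 12.6 ± 3.53%, against 24.8 ± 1.002% in GFP-negative libraries. Arf4 took 19.4 ± 0.840% of it in GFP-positive libraries, against 12.8 ± 1.46% in GFP-negative libraries, and Arf1 took 47.3 ± 2.99% in GFP-positive libraries, against 42.1 ± 1.77% in GFP-negative libraries. Shares of one sum are bound to each other, so a lower share of Arf6 raises the others. With Arf6 left out, the ARF sum was 1461, 1249 and 1255 TPM in GFP-positive libraries and 1440, 1613 and 1567 TPM in GFP-negative libraries, and the gates overlapped.

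**Figure D4:**
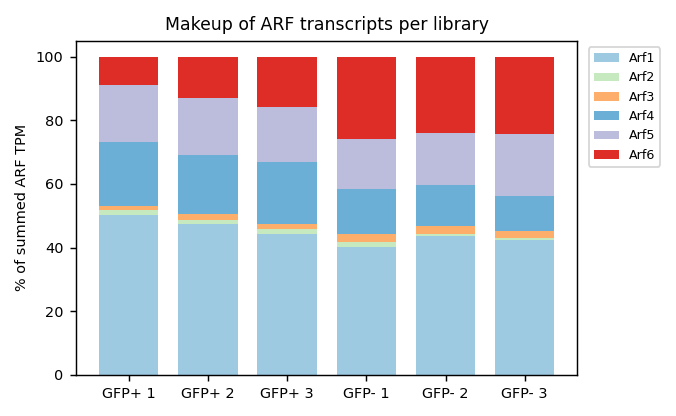
Percent of summed ARF TPM held by each of the 6 ARF genes, with 1 bar per library, GFP-positive libraries left and GFP-negative libraries right. The red block of Arf6 is 8.90 to 15.95% in GFP-positive libraries and 24.1 to 25.9% in GFP-negative libraries.

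Of the 41 tested RAB genes none passed the threshold by edgeR, DESeq2 or limma-voom. At an unadjusted p under 0.05, 5 (12.2%) were lower and 1 (2.44%) was higher in GFP-positive cells, beside 5.97% and 4.31% of all tested genes. The median log2 fold change of the RAB genes was -0.06. Rab35, a GTPase of fast recycling from the plasma membrane whose pathway is known to counter ARF6, had 13.7, 22.5 and 29.4 CPM in GFP-positive libraries, against 39.2, 37.5 and 50.7 CPM in GFP-negative libraries. Rab40c, which carries a SOCS box and joins a ubiquitin ligase, had 7.62, 2.30 and 9.32 CPM in GFP-positive libraries, against 19.96, 18.6 and 16.01 CPM in GFP-negative libraries. For both genes every GFP-positive library lay below every GFP-negative library. Their log2 fold changes were -0.95 (SE 0.30) for Rab35 and -1.49 (SE 0.49) for Rab40c, with edgeR adjusted p of 0.268 and 0.296. Rab40c shares 3.33% of its exon bases with an antisense gene, Gm16278, that had at most 3 counts in any library.

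Rab1b, the RAB with the highest mean TPM, had 297, 249 and 247 CPM in GFP-positive libraries and 340, 330 and 344 CPM in GFP-negative libraries, with no overlap and a log2 difference of -0.35 (SE 0.14, edgeR adjusted p = 0.384). Rab2a, of the same route, and Rab10, of exocytosis, named after their values were seen, had log2 fold changes of -0.37 and -0.36 with no overlap between gates (edgeR adjusted p = 0.442 and 0.449). Rab1b held 78.8 ± 3.95% of RAB1 TPM in GFP-positive libraries and 80.3 ± 0.722% in GFP-negative libraries, a difference smaller than the spread between libraries.

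Of the RABs named for their known part in lymphocyte traffic, Rab5a of early endosomes had a log2 fold change of -0.25, Rab7 of late endosomes 0.07, and Rab11a of recycling endosomes -0.08 (edgeR adjusted p = 0.710, 0.913 and 0.927). Rab8a, of traffic to the plasma membrane, had 358, 342 and 321 CPM in GFP-positive libraries and 289, 345 and 349 CPM in GFP-negative libraries. Rab27a, which docks secretory granules, had 132, 121 and 148 CPM in GFP-positive libraries and 142, 163 and 167 CPM in GFP-negative libraries. Rab37, of regulated secretion, had 310, 225 and 140 CPM in GFP-positive libraries and 202, 218 and 234 CPM in GFP-negative libraries. The gates overlapped for all 3 genes, and Rab37 varied more among GFP-positive libraries than between gates. Their log2 fold changes were 0.05 (SE 0.14) for Rab8a, -0.23 (SE 0.15) for Rab27a and 0.04 (SE 0.24) for Rab37, with edgeR adjusted p of 0.933, 0.656 and 0.978. Rab27a made up 99.5 ± 0.406% of RAB27 TPM in GFP-positive libraries and 99.9 ± 0.2001% in GFP-negative libraries, so Rab27b was near absent in both gates.

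Of the 16 tested ARL genes none passed the threshold by edgeR, DESeq2 or limma-voom, and their median log2 fold change was -0.02. At an unadjusted p under 0.05, 1 was lower and 1 higher (6.25% each, beside 5.97% and 4.31% of all tested genes). That pair belongs to 1 family of Golgi GTPases. Arl5a had 7.45, 11.7 and 20.5 CPM in GFP-positive libraries, against 34.3, 37.5 and 20.2 CPM in GFP-negative libraries. Arl5c had 28.2, 29.9 and 59.7 CPM in GFP-positive libraries, against 12.2, 30.2 and 15.3 CPM in GFP-negative libraries. The gates met for each gene in 1 library, GFP-negative replicate 3 for Arl5a and GFP-negative replicate 2 for Arl5c. Log2 fold changes were -1.21 (SE 0.40, edgeR adjusted p = 0.296) for Arl5a and 1.03 (SE 0.39, edgeR adjusted p = 0.386) for Arl5c, and without GFP-positive replicate 3 they were -1.68 and 0.60.

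Within the family, Arl5a held 4.83, 6.78 and 8.65% of ARL5 TPM in GFP-positive libraries, and 22.2, 18.8 and 18.4% in GFP-negative libraries. Every GFP-positive share was below every GFP-negative share. Arl5b, the third paralog, had a log2 fold change of -0.02 and held 40.4 ± 12.7% in GFP-positive libraries, against 47.9 ± 8.19% in GFP-negative libraries. These shares were looked at after the values of Arl5a and Arl5c were seen, and they are given with no test.

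Arl8b, which moves lysosomes and lytic granules along microtubules, had 142, 106 and 133 CPM in GFP-positive libraries and 147, 89.1 and 129 CPM in GFP-negative libraries. Arl4c, a plasma membrane ARL, had 87.1, 91.5 and 108 CPM in GFP-positive libraries and 104, 109 and 86.8 CPM in GFP-negative libraries. The gates overlapped widely for both, with edgeR adjusted p of 0.944 for Arl8b and 0.934 for Arl4c. The ARL genes whose values were higher in every GFP-positive library were Arl13b, a cilium GTPase, and Arl2, which takes part in tubulin folding, both named after their values were seen. Arl13b had 26.3, 25.3 and 39.2 CPM in GFP-positive libraries and 17.6, 25.0 and 7.02 CPM in GFP-negative libraries, and Arl2 had 24.9, 24.1 and 17.2 CPM in GFP-positive libraries and 16.7, 16.6 and 10.3 CPM in GFP-negative libraries. Neither passed the test (edgeR adjusted p = 0.5003 and 0.608).

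Of the 14 tested partner genes none passed the threshold by edgeR, DESeq2 or limma-voom, and their median log2 fold change was -0.26. At an unadjusted p under 0.05, 4 (28.6%) were lower and 0 higher, beside 5.97% and 4.31% of all tested genes. Rab11fip3, a RAB11 effector of recycling endosomes and cytokinesis, had 1.39, 1.61 and 2.73 CPM in GFP-positive libraries, against 7.75, 4.32 and 7.67 CPM in GFP-negative libraries (log2 fold change -1.77, SE 0.69, edgeR adjusted p = 0.393). Arl6ip1 had 557, 456 and 460 CPM in GFP-positive libraries, against 598, 608 and 683 CPM in GFP-negative libraries (log2 fold change -0.36, SE 0.14, edgeR adjusted p = 0.410). Arl2bp, which binds ARL2, had 97.2, 120 and 112 CPM in GFP-positive libraries, against 158, 150 and 129 CPM in GFP-negative libraries (log2 fold change -0.41, SE 0.15, edgeR adjusted p = 0.379). In all 3 genes, and in Arl14ep (log2 fold change -0.71, edgeR adjusted p = 0.394), every GFP-positive library was below every GFP-negative library. Arl6ip5 overlapped, at 0.13 on the log2 scale (edgeR adjusted p = 0.804).

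The positive sign of the Rab32 log2 fold change, and much of the size of that of Rab20, rested on GFP-positive replicate 3. Rab32, a GTPase of lysosome-related organelles known from myeloid and pigment cells, had 0, 0 and 310 counts in GFP-positive replicates 1 to 3, against 14, 5 and 13 counts in GFP-negative replicates 1 to 3. In CPM these are 0, 0 and 44.5 in GFP-positive libraries and 2.71, 1.14 and 2.85 in GFP-negative libraries. GFP-positive replicate 3 was high, the other GFP-positive libraries had no read, and the fitted log2 difference, 2.73 (SE 2.38, edgeR adjusted p = 0.785), turned to -6.45 without that library. Rab20, known from phagosome maturation and induced in hypoxia, had 18.9, 28.3 and 76.0 CPM in GFP-positive libraries, against 13.2, 18.0 and 18.9 CPM in GFP-negative libraries. Its lowest GFP-positive value was level with its highest GFP-negative value, and the log2 difference, 1.31 (SE 0.47, edgeR adjusted p = 0.379), was 0.51 without GFP-positive replicate 3. Rab20 also shares 25.6% of its exon bases with E230013L22Rik on the opposite strand, which had 25, 0 and 19 counts in GFP-positive libraries and 0, 0 and 2 counts in GFP-negative libraries.

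Further genes were counted almost only in that library, and are named after their values were seen. Rab11fip5, Rab13, Rab15, Rab17, Rab25, Rab30, Rab38 and Rab39 had counts in GFP-positive replicate 3 alone, between 2 and 43, the highest being Rab25, an epithelial member of the RAB11 family, at 6.17 CPM. No other library had more than 1 gene counted there alone. Rab7b had 11.6 CPM, Rab3il1 10.2 CPM and Rab44 6.88 CPM in GFP-positive replicate 3, and at most 1.59 CPM in any other library. GFP-positive replicate 3 held the highest value of 27 genes of the group, 13 of them among the untested. It was also the deepest library and had 92 of the 104 genes with a count, beside 79 to 84 in the others. The same library held 923 counts of Csf1r, a macrophage receptor, beside 3 to 19 in the others, and 399 counts of Epcam, an epithelial adhesion molecule, beside 0 to 27. All 10 myeloid markers had a count in it, while 1 to 3 of the 10 were at 0 in each other library. All 9 epithelial markers had a count in it too, and 0 to 5 were at 0 in the others. The part of these markers in the values was not tested.

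**Figure D5:**
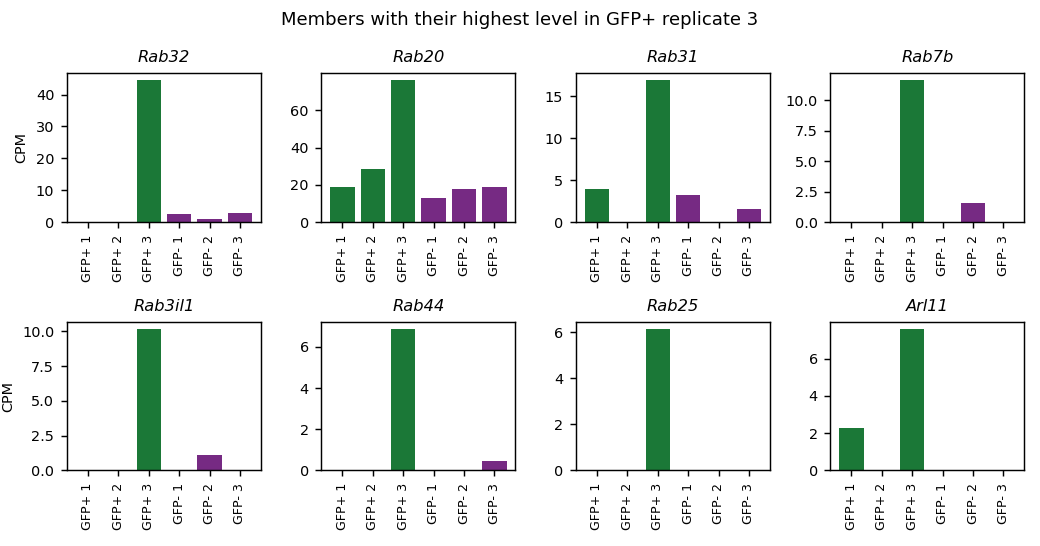
CPM per library of 8 genes whose highest value was in GFP-positive replicate 3, with GFP-positive libraries in green on the left and GFP-negative libraries in purple on the right, each axis starting at 0. Rab32 stands at 44.5 CPM in GFP-positive replicate 3 and at 0 to 2.85 CPM elsewhere, and Rab25 has counts in that library alone.

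The genes that load, switch off, lipid-modify and read these GTPases were taken from 7 lists. No gene of any list passed the threshold by edgeR or limma-voom, and DESeq2 called 2, both higher in GFP-positive cells: Rabggtb and Dennd2d. EdgeR with no filter on low counts, under which 373 of 20982 genes were called, called the same pair as higher and Smap1 as lower (adjusted p = 0.00877 for Rabggtb, 0.0102 for Dennd2d and 0.0354 for Smap1). At an unadjusted p under 0.05, 4.31% of all tested genes were higher and 5.97% lower, the shares to set beside each list. Of 13 tested genes for GDP dissociation inhibitors and prenylation, 1 was higher and 1 lower at that p (7.69% each), with a median log2 fold change of -0.04. The higher one was Rabggtb, the beta subunit of the enzyme that attaches lipid anchors to RAB proteins. It had 78.1, 70.1 and 80.9 CPM in GFP-positive libraries, against 35.3, 46.4 and 41.0 CPM in GFP-negative libraries (log2 fold change 0.90, SE 0.20, edgeR adjusted p = 0.118), and every GFP-positive library was above every GFP-negative one. The lower one was Yipf1, a Golgi membrane protein (log2 fold change -0.39, edgeR adjusted p = 0.449).

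Of 39 tested RAB exchange factors, 2 (5.13%) were higher and 0 lower at an unadjusted p under 0.05, with a median of 0.06 on the log2 scale. The shares of all tested genes were 4.31% higher and 5.97% lower. Dennd2d, a DENN-domain exchange factor, had 508, 559 and 476 CPM in GFP-positive libraries, against 342, 306 and 349 CPM in GFP-negative libraries (log2 fold change 0.63, SE 0.14, edgeR adjusted p = 0.118), again with no overlap. The other was Ankrd27, an exchange factor for RAB21, at 0.60 on the log2 scale (edgeR adjusted p = 0.467). Of 32 tested RAB GTPase-activating proteins, 1 (3.125%) was higher and 2 (6.25%) lower, with a median of 0.06. Tbc1d4, known from insulin-driven transporter traffic, had 117, 108 and 115 CPM in GFP-positive libraries, against 89.4, 61.9 and 64.9 CPM in GFP-negative libraries (log2 fold change 0.65, edgeR adjusted p = 0.208), and Tbc1d31 stood at -1.08 on the log2 scale (edgeR adjusted p = 0.379). Of 33 tested RAB effectors, 0 were higher and 3 (9.09%) lower, with a median of -0.06. The smallest p values were those of Nde1, a dynein regulator, at -0.67 and Bicd2, a dynein adaptor that binds RAB6, at -1.004 (edgeR adjusted p = 0.237 and 0.244).

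Of 11 tested ARF exchange factors, none was below an unadjusted p of 0.05, and the median log2 fold change was -0.01. The smallest p values there were those of Fbxo8, at a log2 fold change of 0.31, and of Iqsec1, an exchange factor for ARF6, at 0.38 (edgeR adjusted p = 0.679 and 0.740). Of 20 tested ARF GTPase-activating proteins, 1 was higher and 3 were lower, with a median of -0.06. The lower ones included Smap1 and Arap2, both known to act on ARF6, with log2 fold changes of -0.90 (SE 0.24) and -0.47 (SE 0.13) and edgeR adjusted p of 0.197 and 0.211. Smap1 averaged 29.5 ± 5.26 CPM in GFP-positive cells and 55.0 ± 10.6 CPM in GFP-negative cells, and Arap2 averaged 230.4 ± 10.4 CPM in GFP-positive cells and 318.3 ± 14.3 CPM in GFP-negative cells (SD, n = 3 each). Of 34 tested ARF and ARL effectors, 0 were higher and 2 (5.88%) lower, with a median of -0.03. These were Unc119b and Unc119, carriers of myristoylated proteins that ARL3 unloads, at log2 fold changes of -0.48 and -0.81 (edgeR adjusted p = 0.270 and 0.345).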

How the data were processed

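RNA was measured in 6 bulk libraries, grouped and numbered by their titles. The authors deposited raw counts per gene and TPM. The tools were STAR 2.7.10b, fastp 0.23.3, deepTools 3.5.1 and SAMtools 1.17 with mm10, per the submitters' processing notes. What counted the reads, on which annotation and with what handling of shared reads is not given in the sources used here. Per the labels' protocols, cDNA was made with oligo-dT and random primers, amplified by PCR and tagged by a transposase, so strand is not recorded and there are no molecular identifiers. Counts of near-identical paralogs and of overlapping genes are therefore uncertain: exons of 26 of the genes overlap a gene on the opposite strand and those of 7 a gene on the same strand.

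The test was edgeR 4.0.16 (R 4.3.3), quasi-likelihood, on the deposited counts, with TMM factors, the default filter by group (minimum count 10), the gate as the only term, all 6 libraries, Benjamini-Hochberg adjustment over 11074 genes and a threshold of 0.05. CPM are relative to TMM-scaled totals, and fold changes are GFP-positive over GFP-negative. The test was first run on counts simulated from its own fit to these libraries, which checks the code and not its assumptions. Alternatives were no filter, 1 CPM in 3 libraries, RLE factors, library size alone, DESeq2 1.42.0, limma 3.58.1 (voom, and log2 TPM with pseudocounts of 1 and 0.1), a replicate block, a threshold of 0.01 and each library left out. Leaving out libraries on the full gene list and the count of gates without overlap lacking GFP-positive replicate 3 were added after seeing the data, as was no filter without that library.

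The genes, the 7 pathway lists (212 of 213 entries found) and the marker lists (56 entries) were chosen with earlier results of these data known. Named genes were 10 known from lymphocyte traffic, up to 12 with the smallest p below 0.05, the 6 highest by TPM, any averaging at least 5 CPM with 1 library over 4 times the rest, and 2 per list with the smallest p. All 104 genes matched GENCODE M21, 102 with their version. Replicates were not duplicates (chi-square per degree of freedom of at least 10.7).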

Additional observations from a re-analysis of the deposited data

How the results depend on the processing

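Arf6 was lower in GFP-positive cells under all 23 other fits of the same libraries, as its gates without overlap made likely. Its call was lost with limma on log2(TPM + 1) (-1.45, adjusted p = 0.0659, and 0.131 with no filter) and on log2(TPM + 0.1) (-1.46, adjusted p = 0.0586), where 0 of these genes and 1, 1 and 0 of all genes were called, and at a threshold of 0.01, where 0 genes were called. Leaving out 1 library, with the filter applied anew or on the genes of the full data, gave -1.62 to -1.13, with 0 to 1 of these genes called lower and 0 to 50 of all genes called. The call was kept only without GFP-positive replicate 3. All genes called numbered 12, against 19 with library size alone, 200 with DESeq2 and 373 with no filter. With no filter 2 of these genes were called higher, Rab20 and Arl11, and 3 lower, Arf6, Arf3 and Arl5a, and DESeq2 called 2 lower. Arl11 had 13, 0 and 53 counts in GFP-positive replicates 1 to 3 and 0 in every GFP-negative library. With no filter and without GFP-positive replicate 3, edgeR called 377 genes, and of the GTPase group 0 as higher and 5 as lower, Arf6 (-1.63), Arf3, Arl5a, Rab35 and Rab40c. The adjusted p was then 0.503 for Arl11 and 0.738 for Rab20, against 0.0417 and 0.00472 with all libraries. The replicate block called 81 genes, of these genes again Arf6 alone. After the gate mean of each gene was subtracted, what remained of log CPM correlated at 0.104, 0.0971 and 0.104 between same-numbered libraries. Each was highest with its own number, a hint from the data that did not meet the rule for pairing. Without that subtraction, the libraries correlated with each other at 0.879 to 0.935. Signs that turned belonged to genes that were not called. Rab37 was -0.035 with voom, -0.025 with the block, -0.091 and -0.092 with log2(TPM + 1) and log2(TPM + 0.1), and -0.27 to 0.31 leaving out libraries. Rab32 was -0.99 with voom, -0.38 with the block, -1.77 with log2(TPM + 0.1) and -6.46 to 3.31 leaving out libraries. Rab8a was -0.0071 with both TPM pseudocounts and -0.033 to 0.11 leaving out libraries. There, Arl8b ran from -0.12 to 0.22, Rab11a from -0.17 to 0.091 and Arl4c from -0.17 to 0.0029. The cause was not tested. The median over these genes stayed between -0.15 and -0.02. Depth limits genes of few reads: the 27 untested ones have levels but no comparison.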
